A study of Mus musculus with 4 samples.

Results

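Collagen genes were read from RNA sequencing of the mouse breast cancer line 4T1-T with Asns silenced in both groups, Asns being the gene of asparagine synthetase. The cells were grown in DMEM without asparagine or in DMEM with asparagine, with 2 libraries, named A and B, in each group. Where a pair of values is given for a group, that of library A comes first. The members were the rows whose symbol had the form Col, a number, a and a number, except Col17a1, and there were 43 of them among the 23481 genes of the table. The rule used gene symbols only, though it was chosen with earlier results of these data known. Of the 43, 14 reached a mean of 1 CPM over the 4 libraries, where CPM is the count scaled to a common total of gene reads after TMM normalisation. How Asns was silenced, and whether the line is a single clone, is not given in the sources used here.

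Collagens are proteins of 3 chains wound into a triple helix, and they form most of the fibrous scaffold between cells. Most are secreted, and a few are transmembrane proteins. Fibrillar collagens build the banded fibrils of stroma, type IV collagen builds the sheet of the basement membrane under epithelia, and other classes decorate fibrils, anchor basement membranes to stroma or form short networks. Chains are hydroxylated and folded in the endoplasmic reticulum, secreted, trimmed by proteases outside the cell and then crosslinked. In mammary tumours most fibrillar collagen is known to come from fibroblasts, whereas carcinoma cells are known to make basement membrane collagens.

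Gene counts ranged from 17977552 to 30260582 per library, and library A without asparagine was the shallowest. In that library 56.6% of reads fell outside annotated features, against 46.3% to 49.3% in the others. The ribosomal RNA precursor Rn45s made up 3.53% of its gene counts and 0.884% to 1.66% of those of the other libraries. Asns had 75.0 and 89.2 CPM without asparagine and 103 and 101 CPM with it, and no unsilenced library was analysed here. All 5 epithelial markers (Krt8, Krt18, Krt19, Epcam and Cdh1) reached 1 CPM, with summed levels of 923 and 911 CPM without and 761 and 843 CPM with asparagine. Of these, edgeR called Epcam, which was higher without asparagine (log2 fold change 0.68, adjusted p = 0.0368), while Krt8, Krt18, Krt19 and Cdh1 were at -0.13, -0.02, 0.20 and 0.50 and were not called. Among 6 fibroblast markers only Pdgfra did. The fibroblast sum, nearly all Pdgfra, was 18.3 and 23.1 CPM without and 43.0 and 41.0 CPM with asparagine, while Thy1 had 0 reads in every library and Dcn had 0 in 3 of the 4. No endothelial marker of 4 reached 1 CPM. In RNA from whole cultures, fewer cells of a type and less RNA per cell cannot be told apart.

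The short network gene Col8a1 and the basement membrane genes Col4a1 and Col4a2 led the collagen RNA of these cells. The other short network members, Col8a2 and Col10a1, had means of only 0.065 and 2.16 CPM. The members with the 5 highest levels, in CPM and also per kilobase of exon, were Col8a1, Col4a1, Col4a2, Col7a1 and Col18a1, and together they held between 86.4% and 88.4% of the summed collagen level in each library. The sum over all members was 1471 and 1415 CPM without asparagine and 1423 and 1460 CPM with it. These sums overlap between the groups and correspond to 0.140% to 0.1501% of gene counts. Of the 20 members tested, the edgeR quasi-likelihood test called 1 at an adjusted p threshold of 0.05, against 1.85% of all 12843 tested genes. The called member was Col18a1, which was lower without asparagine.

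The chains of the stromal fibrils of type I and type III collagen were near the limit of counting. Col1a1, the main chain of type I collagen, had 7, 7, 10 and 5 reads in libraries A and B of the cells without and then A and B of those with asparagine. Its partner chain Col1a2 had 0, 4, 0 and 5 reads in the same order, and Col3a1, the chain of type III collagen, had 1 read in a single library. A count of 0 allows up to 0.164, 0.134, 0.126 and 0.1001 CPM in the 4 libraries, as 3 reads of each, and this covers counting error only. Of the 11 fibrillar members 2 reached 1 CPM, Col5a1 and Col27a1.

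**Figure D1:**
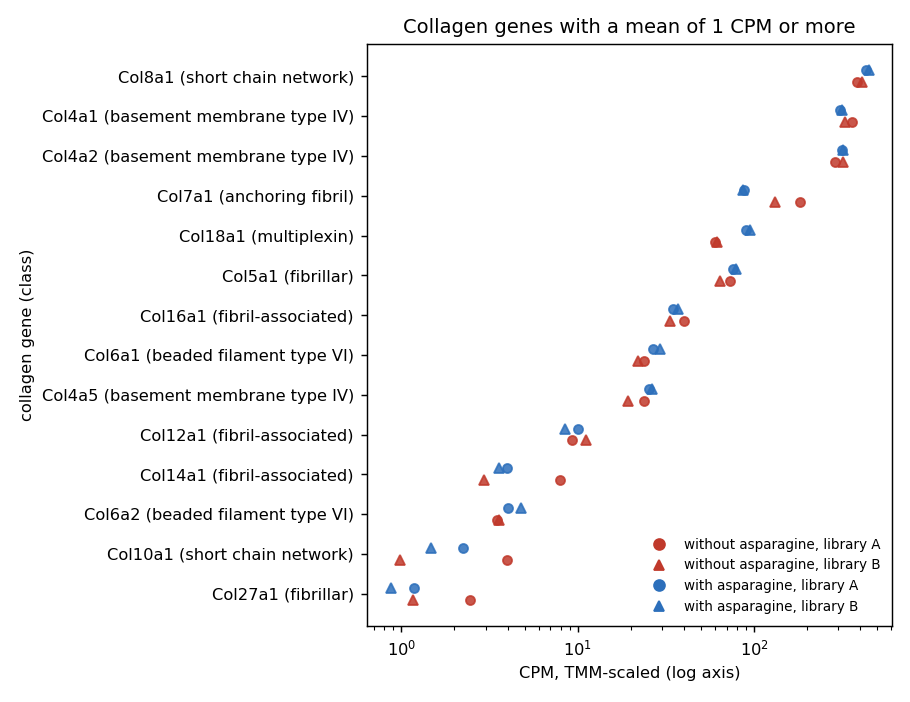
Levels of the 14 collagen genes that reached 1 CPM on average, in CPM on a log axis, with a point for each library (red without, blue with asparagine; circle A, triangle B). Col8a1, Col4a1 and Col4a2 lie highest, each at 286 CPM or more in every library, and Col27a1 lies lowest.

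Counts grow with transcript length, so levels were compared between genes as CPM per kilobase of annotated exon. On that scale Col8a1 had 53.4, Col4a2 46.9 and Col4a1 43.9 CPM per kilobase, above 93.9%, 92.7% and 92.0% of the 12095 tested genes with a length. Col7a1 had 11.9, Col18a1 10.9 and Col5a1 8.59 CPM per kilobase. With the longest transcript as the length, the first place of Col8a1 was kept, while Col4a1 moved above Col4a2 and Col18a1 above Col7a1. Exon structure differs widely among these genes. The longest transcript of Col8a1 has 4 exons, that of Col4a1 has 52, and that of Col7a1 has 119 with a median exon of 60 bases. Whether reads over exon junctions were aligned is not given in the sources used here, so the order of levels between genes carries this uncertainty, which a fold change within 1 gene carries less.

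Col18a1 encodes the core protein of type XVIII collagen, a heparan sulfate proteoglycan of basement membranes whose end fragment is endostatin. It had 60.0 and 61.9 CPM without asparagine and 90.2 and 94.5 CPM with it. Both libraries without asparagine were below both with it, and within each group the libraries lay close together. The means were 60.9 ± 1.38 and 92.3 ± 3.08 CPM (SD, n = 2 each). The log2 fold change, without minus with asparagine, was -0.60 ± 0.10 (SE), or 1.52-fold lower, and it passed the edgeR test (adjusted p = 0.0384). Over all 12843 genes tested 1.85% were called, 1.07% lower and 0.771% higher, against 1 of 20 tested collagen genes. The call was lost without library A with asparagine (log2 fold change -0.63) and without library B with asparagine (-0.57), where the direction was the same and the SE larger. In each of these fits most of the 237 genes called by edgeR also lost their call. Col18a1 lies on chromosome 10 from 77052178 to 77166548 (GRCm38, GENCODE M21), and no annotated exon of another gene overlaps its exons. It has more than 1 start site, and counts per gene symbol do not separate its transcripts. Pdgfra, the fibroblast marker above 1 CPM, was lower in the same libraries, at a log2 fold change of -1.03 (edgeR adjusted p = 0.0221). Thy1, Dcn, Lum and Dpt had between 0 and 2 reads in any library, and Fap had 4 and 7 reads without and 4 and 6 reads with asparagine. The part of this shift in the value was not tested.

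Col7a1 encodes the chain of type VII collagen, which forms the anchoring fibrils that tie an epithelial basement membrane to the stroma. It had 182 and 131 CPM without asparagine, against 88.0 and 86.7 CPM with it. Both libraries without asparagine were above both with it, but they also differed from each other by more than any library with asparagine differed from its partner. The means were 157 ± 36.3 and 87.4 ± 0.873 CPM (SD, n = 2 each). On the log2 scale the difference was 0.84 ± 0.16 (SE), the largest positive value among the 20 tested collagen genes, and it was not called by edgeR (adjusted p = 0.0595). It was 0.59 when library A of the asparagine-free cells was left out and 1.06 when library B of that group was left out. The size of the difference thus rests on which of those libraries is used. The DESeq2 Wald test called Col7a1 (log2 fold change 0.84, adjusted p = 1.51e-04), as did edgeR with no low-count filter (0.83, adjusted p = 6.04e-08). Over all genes these settings called 464 and 1334, where the edgeR test with the filter called 237. Library A, the higher of the pair, is the library with the largest share of Rn45s and of reads outside features, and the part of these in the value was not tested. Of the 5 epithelial markers, edgeR called Epcam alone, which was also higher without asparagine (65.2 and 58.9 against 37.3 and 40.2 CPM). Krt8, Krt18, Krt19 and Cdh1 were at log2 fold changes of -0.13, -0.02, 0.20 and 0.50 and were not called. The part of any epithelial shift in the Col7a1 value was not tested either. Col7a1 lies on chromosome 9 from 108953586 to 108984875, and its exons overlap the microRNA gene Mir711 on the same strand.

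The ratio of Col7a1 to Col18a1 in a library was 3.04 and 2.12 without asparagine and 0.976 and 0.918 with it. In CPM, not corrected for length, Col7a1 was thus above Col18a1 in both libraries without asparagine. In both libraries with it the levels were close, with Col7a1 slightly lower. The pair was chosen after its values were seen, so the ratio is a description.

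**Figure D2:**
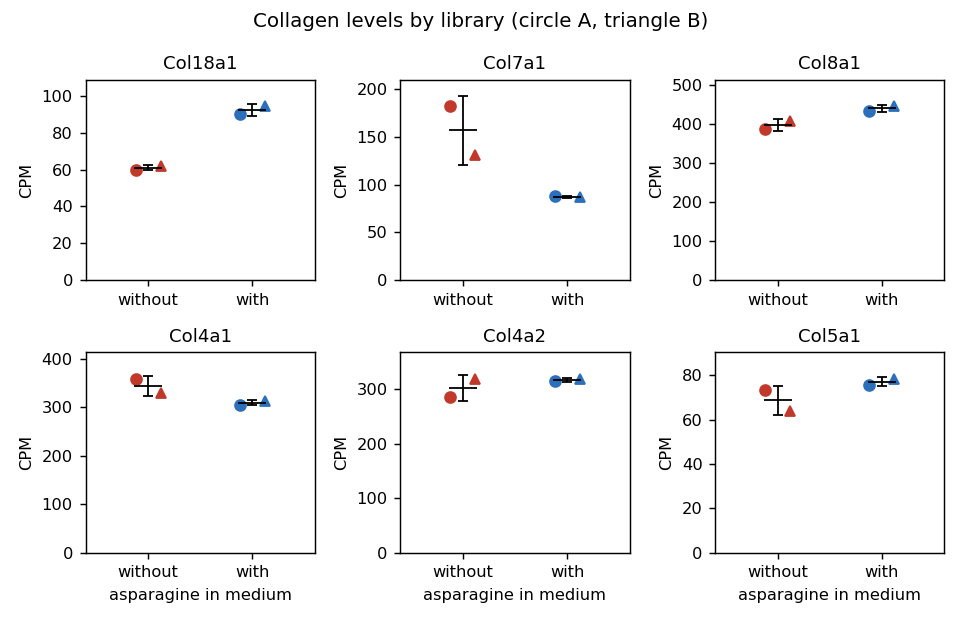
CPM of 6 collagen genes by library on axes that start at 0 (circle A, triangle B; the bar and whiskers are the mean and SD of 2 libraries). Col18a1 is lower and Col7a1 higher in both libraries without asparagine, while the other 4 genes differ by at most 1.12-fold between groups.

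Because these genes had the 2 smallest p-values among members above 1 CPM, the bases before their start sites are shown. The windows run from 250 to 31 bases before the RefSeq start (GRCm38.p6), 220 bases each, and are given 5′ to 3′ on the strand of the gene. Capitals mark matches, on either strand, to the GC box (GGGCGG) or the CCAAT box (CCAAT). The AP-1 motif (TGANTCA) and the TATA box (TATAAA) were searched for in the same way and had no match, and no base lay in more than 1 match.
Col7a1, chr9:108953336-108953555, plus strand: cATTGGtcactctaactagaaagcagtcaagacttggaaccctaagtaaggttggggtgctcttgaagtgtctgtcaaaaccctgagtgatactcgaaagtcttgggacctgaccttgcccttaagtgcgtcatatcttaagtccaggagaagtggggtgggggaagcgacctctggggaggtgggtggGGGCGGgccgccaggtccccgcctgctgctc
Col18a1, chr10:77166561-77166780, minus strand: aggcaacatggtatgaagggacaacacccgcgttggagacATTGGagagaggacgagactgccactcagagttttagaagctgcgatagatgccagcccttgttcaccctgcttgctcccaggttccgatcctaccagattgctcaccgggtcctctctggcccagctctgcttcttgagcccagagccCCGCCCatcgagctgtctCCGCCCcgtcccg

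Both windows thus hold a CCAAT match, and Col7a1 has 1 and Col18a1 has 2 GC box matches. Of 32851 windows of this length in the table, 28.5% hold a GC box, 31.0% a CCAAT box, 6.12% an AP-1 motif and 9.95% a TATA box. RefSeq windows were found for 34 of the 43 collagen genes, with 37 starts, of which 18 held a GC box, 10 a CCAAT box, 1 an AP-1 motif and 3 a TATA box. A match of letters is a description and not a binding site. A second Col18a1 start, at position 77113705, has 211 of its 220 window bases in annotated exons and is not shown.

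Col4a1 and Col4a2, whose chains assemble together into the main network of basement membranes, had like levels, and neither was called. Col4a1 had 360 and 330 CPM without asparagine and 306 and 314 CPM with it. Both libraries without asparagine were above both with it, which 26.1% of all tested genes also showed, and the log2 fold change of 0.16 ± 0.10 (SE) was not called by edgeR (adjusted p = 0.452). Col4a2 had 286 and 320 CPM without and 315 and 320 CPM with asparagine in the same order, with overlapping groups and a log2 fold change of -0.07 ± 0.11 (SE, edgeR adjusted p = 0.769). The ratio of Col4a1 to Col4a2 was 1.26 and 1.03 without asparagine, against 0.973 and 0.980 with it. These genes lie head to head on chromosome 8, Col4a1 from 11198423 to 11312826 on the minus strand and Col4a2 from 11312805 to 11449287 on the plus strand. Their starts are 21 bases apart, so their first exons overlap. Exons of Gm15419 also overlap those of Col4a2, and without a stated strand setting reads of these overlaps cannot be assigned.

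The other type IV chains are arranged as pairs in the same way, and of these only Col4a5 reached 1 CPM. Col4a5 had 23.7 and 19.4 CPM without and 25.3 and 26.3 CPM with asparagine (log2 fold change -0.26 ± 0.14, SE, edgeR adjusted p = 0.363). Both libraries without asparagine were below both with it, as for 26.4% of all tested genes. Col4a6, whose start lies 1309 bases from that of Col4a5 on the X chromosome, had a mean of 0.743 CPM, so the members of this head-to-head pair differed widely in level. Col4a3 and Col4a4, which encode some of the chains of the mature kidney basement membrane, start 72 bases apart on chromosome 1 and had means of 0.522 and 0.854 CPM. The log2 fold changes of Col4a6, Col4a3 and Col4a4 were -0.34, 0.50 and 0.39, on 5 to 26 reads a library, and none was called (edgeR adjusted p = 0.721, 0.736 and 0.638).

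Col8a1, the most abundant member, encodes a chain of type VIII collagen, a short chain network of vessel walls and the cornea. It had 386 and 407 CPM without asparagine and 433 and 446 CPM with it. The groups did not overlap, as for 52.5% of all tested genes, and the log2 fold change of -0.15 ± 0.10 (SE) was not called by edgeR (adjusted p = 0.460). Its partner chain gene Col8a2 had at most 2 reads in any library. Col10a1, the related chain of growth plate cartilage, had 3.98 and 0.984 CPM without asparagine and 2.23 and 1.47 CPM with it. The libraries without asparagine lay on either side of both libraries with it (log2 fold change 0.40 ± 0.58, SE, edgeR adjusted p = 0.741), and exons of Nt5dc1 on the opposite strand overlap those of Col10a1.

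Col5a1, which encodes the main chain of type V collagen and acts in starting fibrils, was the one fibrillar member of sizeable level. It had 73.4 and 64.0 CPM without and 75.6 and 78.6 CPM with asparagine, a log2 fold change of -0.17 ± 0.11 (SE, edgeR adjusted p = 0.460). Col5a2, the chain that pairs with it in most tissues, had 0 reads in 3 libraries and 4 reads in library B with asparagine, and Col5a3 had between 1 and 12 reads. Exons of the antisense genes 2810430I11Rik and Gm13372 overlap those of Col5a1. Col27a1, a fibrillar chain of cartilage, had 2.45 and 1.16 CPM without asparagine and 1.18 and 0.867 CPM with it. The log2 difference of 0.81 ± 0.42 (SE, edgeR adjusted p = 0.362) was 0.21 without library A of the asparagine-free cells and 1.28 without library B of that group.

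Col24a1, a fibrillar chain known from bone, had few reads and passed the low-count filter only through the libraries with asparagine, where it is high, so that a difference was built into its being tested. It had 2 reads in each library without asparagine and 11 and 20 reads with it. The ratio with over without asparagine was 5.87 (95% exact interval 2.07 to 22.9, counting error only). The edgeR test did not call Col24a1 (log2 fold change -2.48 ± 0.61, SE, adjusted p = 0.114). With no low-count filter edgeR called it (adjusted p = 0.0340), a setting that called 1334 genes in all, against 237. Col2a1, the main fibrillar chain of cartilage, had between 15 and 19 reads in every library and overlapping groups (log2 fold change 0.24, edgeR adjusted p = 0.769).

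Type VI collagen forms beaded filaments near basement membranes from chains of several genes. Col6a1 had 23.8 and 22.0 CPM without and 26.8 and 29.3 CPM with asparagine, a log2 fold change of -0.29 ± 0.12 (SE, edgeR adjusted p = 0.261). Col6a2 had 3.49 and 3.58 CPM without and 4.03 and 4.74 CPM with asparagine, a log2 fold change of -0.31 ± 0.20 (SE, edgeR adjusted p = 0.437). In both genes the libraries without asparagine were below those with it, as for 26.4% of all tested genes. The ratio of Col6a1 to Col6a2 lay between 6.15 and 6.81 in all 4 libraries. Col6a3, the large chain of the same filament, had 5 to 11 reads per library, and Col6a4, Col6a5 and Col6a6 were also below 1 CPM.

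Fibril-associated collagens sit on the surface of fibrils, and 3 of the 9 members of this class reached 1 CPM. Col16a1 had 39.9 and 33.5 CPM without asparagine and 34.6 and 37.1 CPM with it, the former on either side of the latter (log2 fold change 0.03 ± 0.13, SE, edgeR adjusted p = 0.917). Col12a1 had 9.27 and 11.1 CPM without and 10.05 and 8.47 CPM with asparagine, again with overlapping groups (log2 fold change 0.14 ± 0.17, SE, edgeR adjusted p = 0.679). Col14a1 had 7.96 CPM in library A and 2.95 CPM in library B without asparagine, on either side of the 3.95 and 3.57 CPM with it. The log2 fold change of this gene was 0.52 with all libraries, -0.34 when library A of the asparagine-free cells was left out, and 1.08 without library B of that group. Col20a1 was tested at a mean of 0.718 CPM (log2 fold change 0.23, edgeR adjusted p = 0.778).

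**Figure D3:**
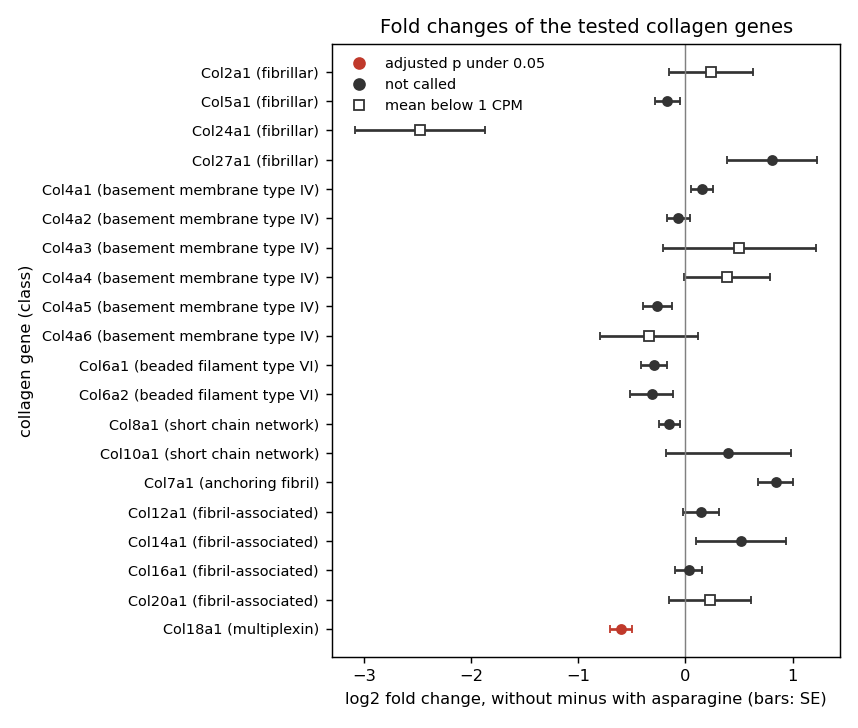
Log2 fold changes of the 20 tested collagen genes, without minus with asparagine, with SE bars and the class in brackets (red: adjusted p under 0.05 in the edgeR test; open squares: mean below 1 CPM). Col18a1 is the only called gene, at -0.60, and Col24a1, at -2.48, rests on few reads and was tested only through its higher group.

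The fold changes of the collagen genes lay on both sides of 0. Of the 20 tested, 11 had a fold change above 0 and 9 below, where 48.6% of all tested genes were below, with a median of 0.09 on the log2 scale against 0.01 over all 12843 genes. Among the 14 that reached 1 CPM, 7 were above 0 and 7 below, with a median of -0.02. The groups did not overlap in 9 of the 20, or 45.0%, 2 of them higher and 7 lower without asparagine, against 52.5% of all tested genes, so this count is near the background. An unadjusted p under 0.05 was found for 4 of the 20, against 18.1% of all tested genes. In 10 of the 20 the highest value was that of library A without asparagine, against 36.9% of all tested genes. Among them were Col14a1, Col10a1, Col27a1 and Col4a3, which had 7.96, 3.98, 2.45 and 1.04 CPM there against 2.95, 0.984, 1.16 and 0.224 CPM in library B of the same group. The part of the larger share of reads outside features and of Rn45s in that library was not tested.

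The 23 members that were not tested had means between 0 and 0.427 CPM. They included the multiplexin Col15a1, all 3 transmembrane members (Col13a1, Col23a1 and Col25a1) and the cartilage fibril partners Col9a1, Col9a2, Col9a3, Col11a1 and Col11a2. Col19a1, Col22a1 and Col28a1 had at most 4 reads in any library. Col26a1 was the 1 member with 0 reads in every library.

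**Figure D4:**
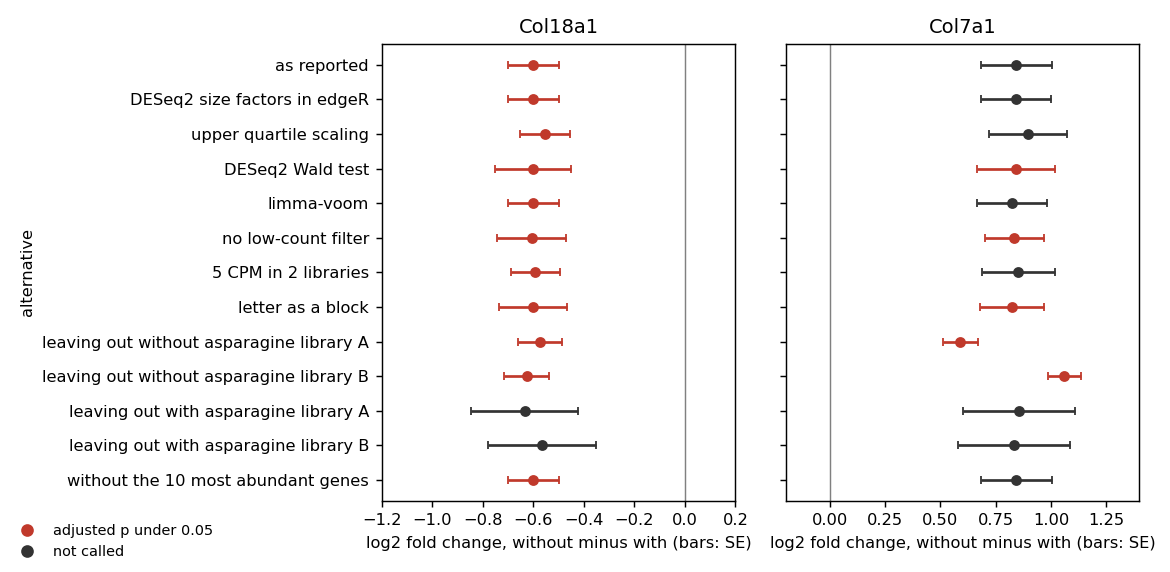
Log2 fold changes of Col18a1 and Col7a1, without minus with asparagine, under each alternative, with SE bars (red: adjusted p under 0.05). Col18a1 stays near -0.60 and is not called when either library with asparagine is left out, while Col7a1 ranges from 0.59 to 1.06 and is called under 5 of the 12 alternatives. Where a library is left out, its group is taken to vary as the other group does.

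Among genes that modify and fold collagen chains, 16 of 19 listed were tested and edgeR called 0, where it called 1.85% of all tested genes. At an unadjusted p under 0.05 there were 5 of the 16, against 18.1% of all tested genes. Limma-voom called 0 and the DESeq2 Wald test called 1, Plod2, where they called 235 and 464 genes in all. Of the 16, 5 were above and 11 below 0, where 48.6% of all tested genes were below. Their median log2 fold change was -0.18, against 0.01 over all tested genes. Plod2, a lysyl hydroxylase that prepares chains for crosslinks, had 253 and 293 CPM without asparagine and 374 and 373 CPM with asparagine present. Its groups did not overlap, as for 52.5% of all tested genes, and its log2 fold change of -0.45 ± 0.11 (SE) was not called by edgeR (adjusted p = 0.117). The DESeq2 Wald test called Plod2 (-0.45, adjusted p = 0.0457), as did edgeR with no low-count filter (-0.46, adjusted p = 0.0100). Without the filter edgeR called 1334 genes in all, against 237 with it. The log2 fold change of Plod2 was -0.35 without library A and -0.57 without library B of the asparagine-free cells. P4ha3, a minor prolyl hydroxylase subunit, had 3.43 and 3.44 CPM without and 1.93 and 2.34 CPM with asparagine (log2 fold change 0.68 ± 0.23, SE, edgeR adjusted p = 0.194). Serpinh1, the collagen chaperone HSP47, had 110 ± 9.93 CPM without and 94.5 ± 4.33 CPM with asparagine (SD, n = 2 each; edgeR adjusted p = 0.362).

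The prolyl hydroxylase genes P4ha1 and P4ha2 were at -0.23 and 0.15 on the log2 scale (edgeR adjusted p = 0.286 and 0.584), and the lysyl hydroxylase gene Plod1 -0.42 (adjusted p = 0.275). P4hb, the disulfide isomerase partner of the prolyl hydroxylase chains, had 500 CPM in library A without asparagine. This was below the 814 CPM in library B of that group and the 783 and 814 CPM with asparagine. Its log2 fold change was -0.28 with all libraries (edgeR adjusted p = 0.512) and 0.03 without that library.

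Among secretion genes, edgeR called 1 of 9 tested, against 1.85% of all tested genes. Creb3l2, a transcription factor held in the endoplasmic reticulum membrane that activates secretory pathway genes in cartilage cells, fell from 44.3 and 49.8 CPM with asparagine to 26.4 and 24.1 CPM without it. The log2 fold change was -0.90 ± 0.12 (SE, edgeR adjusted p = 0.0206). The call was lost without library A with asparagine (log2 fold change -0.98) and without library B with asparagine (-0.81), as it was for most called genes. The list had 2 members above 0 and 7 below, where 48.6% of all tested genes were below, with a median of -0.25 against 0.01.

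Propeptides are cut from procollagen outside the cell, and edgeR called 1 of the 4 tested genes of this step, against 1.85% of all tested genes. Pcolce, which enhances the removal of the C-terminal propeptide, fell from 60.3 and 67.4 CPM with asparagine to 41.3 and 36.5 CPM without it. The log2 fold change was -0.72 ± 0.12 (SE, edgeR adjusted p = 0.0378). The call was lost with upper quartile scaling (-0.67, edgeR adjusted p = 0.0579). It was also lost when library A or B with asparagine was left out (-0.79 and -0.63), as it was for most called genes. Exons of Fbxo24 and Gm36266 overlap those of Pcolce. Adamts14, which belongs to the proteases that remove the N-terminal propeptide, had 40.8 and 34.3 CPM without and 57.7 and 56.4 CPM with asparagine (log2 fold change -0.60 ± 0.12, SE, edgeR adjusted p = 0.0663). The DESeq2 Wald test called it (adjusted p = 0.0115), as did edgeR with no low-count filter (adjusted p = 5.16e-04). Over all genes these settings called 464 and 1334, where the edgeR test with the filter called 237. Like Adamts14, Bmp1, the protease that cuts the C-terminal propeptide, was named after its values were known and stood at 130 ± 9.38 CPM without and 134 ± 5.001 CPM with asparagine (SD, n = 2 each).

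Of 5 crosslinking enzyme genes listed, 3 were tested. Lox, the lysyl oxidase that is best known for fibrillar collagen, was listed at 0 in 3 libraries. Loxl3, a related oxidase, fell from 42.5 and 39.1 CPM with asparagine to 18.0 and 17.4 CPM without it. Its log2 fold change of -1.204 ± 0.12 (SE, edgeR adjusted p = 0.00778) was called under each of the 12 alternatives, the 1 of the 5 called pathway genes for which that held, though exons of Htra2 on the opposite strand overlap those of Loxl3. Loxl4, named after its values were seen, was the most abundant of the family at 258 and 328 CPM without and 220 and 231 CPM with asparagine (log2 fold change 0.38 ± 0.13, SE, edgeR adjusted p = 0.216). Loxl2, the other tested gene of this list, had a mean of 0.808 CPM and a log2 fold change of 0.34 (edgeR adjusted p = 0.680). Of the 3 tested genes edgeR called 1, lower, against 1.07% lower over all tested genes.

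**Figure D5:**
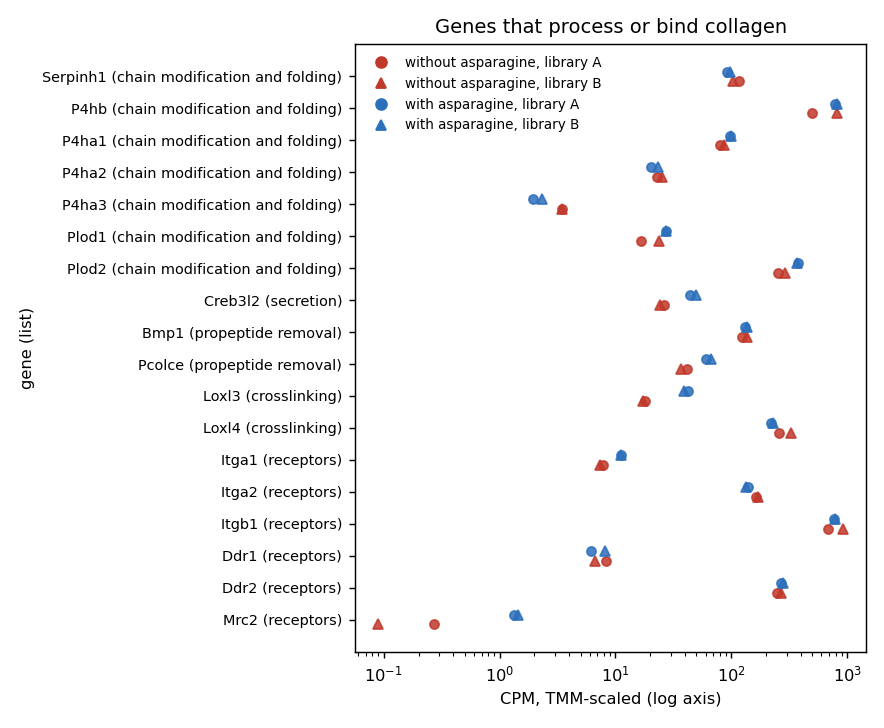
CPM on a log axis of 18 genes that process or bind collagen, with a point for each library (red without, blue with asparagine; circle A, triangle B; the list of each gene in brackets). Loxl3, Pcolce, Creb3l2 and Mrc2 lie lower in both libraries without asparagine and were called in the edgeR test, the other 14 were not.

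Per kilobase of exon the integrin chain Itgb1 and the receptor kinase Ddr2 had the highest levels among the collagen receptors. Itgb1 had 690 and 925 CPM without asparagine, on either side of the 775 and 783 CPM with asparagine present. Its partner Itga2, which forms an epithelial collagen receptor, had 165 and 170 CPM without and 139 and 133 CPM with asparagine (log2 fold change 0.30 ± 0.10, SE, edgeR adjusted p = 0.187). Itga1, the partner that prefers type IV collagen, had 7.85 and 7.42 CPM without and 11.1 and 11.2 CPM with asparagine (-0.55 ± 0.14, SE, edgeR adjusted p = 0.128). The receptor kinase genes Ddr1 and Ddr2 were at 0.06 and -0.07 on the log2 scale (edgeR adjusted p = 0.901 and 0.739), and Ddr2 stood at 259 ± 16.7 CPM without and 273 ± 6.21 CPM with asparagine (SD, n = 2 each).

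Mrc2, which encodes an uptake receptor for collagen fragments, was the 1 receptor of 8 tested that edgeR called, against 1.85% of all tested genes, and it rests on few reads. It passed the low-count filter only through the libraries with asparagine, where it is high, so that a difference was built into its being tested. It had 5 and 2 reads without asparagine and 32 and 43 reads with it. The ratio with over without asparagine was 8.11 (95% exact interval 3.75 to 20.9, counting error only), and the log2 fold change was -2.97 ± 0.50 (SE, edgeR adjusted p = 0.0384). The call was lost without library A or library B with asparagine, as it was for most called genes. The receptor list had 5 members above and 3 below 0, where 48.6% of all tested genes were below, with a median of 0.03 against 0.01.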

How the data were processed

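The authors deposited 1 table of raw read counts by gene symbol, with 4 library columns. Bowtie2, HTSeq and the build mm10 are named in the submitters' processing notes, and RNA was prepared with Qiagen and NuGEN Ovation V2 kits, per the labels' protocols. The sources used here give no program versions, annotation, strand setting or treatment of junction reads. Columns were matched to samples by the descriptions in the labels. The 5 HTSeq summary rows, 60.1% to 70.0% of a library, were kept out of totals and tests.

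Genes were kept by filterByExpr (minimum count 10, minimum total 15), which left 12843. After TMM scaling, edgeR 4.0.16 was used (quasi-likelihood F test, 2 groups, no block), with Benjamini-Hochberg adjustment over all tested genes and a threshold of 0.05. The SE was the size of the log2 fold change divided by the square root of F. Log2 fold changes are without minus with asparagine. The common biological coefficient of variation was 11.2%. Each p-value sets the difference between groups against the spread between libraries of a group, with information shared across genes. With 2 libraries per group and no label naming separate cultures, that spread may be technical. The p-values therefore speak only for these samples. Alternatives were DESeq2 1.42.0 (its size factors and its Wald test), limma 3.58.1 (voom), upper quartile scaling, other low-count filters, a block for the letter, leaving out each library, and the 10 most abundant genes left out. Positions and lengths came from GENCODE M21 (GRCm38), in which 43 of the 43 collagen symbols were found, and upstream windows from the RefSeq promoter table (GRCm38.p6). The edgeR, voom and DESeq2 steps were tested on simulated counts.

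Every collagen gene with a mean of at least 1 CPM was to be named with its values, the tested ones below that with their fold change, and from each pathway list the called members, or the 2 with the smallest p, plus a fixed set of enzymes and receptors. The members and lists were chosen with earlier results of these data known.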

Additional observations from a re-analysis of the deposited data

How the results depend on the processing

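The number of genes called, 237, was 464 with the DESeq2 Wald test, 1334 with no low-count filter and 816 with the letter as a replicate block, and between 59 and 5366 with 1 library left out. The number of collagen genes called, 1, was 2, 3 and 3 in the same order, with Col7a1 added in each and Col24a1 in the last 2, and between 0 and 9 with 1 library left out. The number of pathway genes called, 5, was 7 with the DESeq2 Wald test (Plod2 and Adamts14 added), 10 with no low-count filter, 7 with the replicate block (Adamts14 and Postn added) and between 1 and 30 with 1 library left out. The median log2 fold change of tested collagen genes, 0.09, was -0.22 with no low-count filter (42 genes tested), -0.10 with 5 CPM in 2 libraries (10 genes tested), and between -0.19 and 0.078 with 1 library left out. A left-out library leaves its group with 1 library, taken to vary as the other group does, and the 12843 genes were kept. With the replicate block Col7a1 was at 0.82 (edgeR adjusted p = 7.59e-04). Col18a1 and Col7a1 kept their direction under all 12 alternatives.

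With 1 library left out the direction of several values that were not called reversed, and their log2 fold changes ranged from -0.075 to 0.54 for Col2a1, -0.15 to 0.014 for Col4a2, -0.91 to 1.27 for Col4a3, -1.01 to 0.18 for Col4a6, -0.88 to 1.13 for Col10a1, -0.34 to 1.08 for Col14a1, -0.10 to 0.15 for Col16a1, -0.033 to 0.42 for Col20a1, -0.68 to 0.031 for P4hb, -0.18 to 0.25 for Itgb1, -0.12 to 0.28 for Ddr1 and -0.12 to 0.032 for Bmp1. Bmp1 was also 0.0044 with upper quartile scaling. Pairing of libraries by letter rests only on the shared letter: the deviations of the A libraries from their group means had a correlation of 0.12 over 12843 genes. With few reads a library, as for Col24a1, Col4a3 and most untested members, depth limits the comparison.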

Other observations

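Proteins that bind collagen in the matrix, a list written from textbook knowledge, had 1 gene of 8 tested that edgeR called, against 1.85% of all tested genes (0.771% higher). Thbs1, which encodes the matricellular protein thrombospondin-1, rose from 91.2 and 94.6 CPM with asparagine to 184 and 194 CPM without it. The log2 fold change was 1.02 ± 0.10 (SE, edgeR adjusted p = 0.00778). Leaving out either library with asparagine ended the call, as it did for most called genes. Postn, the gene of periostin, named after its values were seen like Fn1 and Hspg2, had 38 reads without and 9 reads with asparagine in all, a ratio of 5.58 (95% exact interval 2.65 to 13.1, counting error only), and was not called (edgeR adjusted p = 0.0609). It passed the low-count filter only through the libraries without asparagine, where it is high.

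Fn1, which encodes the fibronectin scaffold on which collagen fibrils assemble, had the highest level of this list, also per kilobase, at 1863 ± 148 CPM without and 1715 ± 2.91 CPM with asparagine (SD, n = 2 each; edgeR adjusted p = 0.603). Hspg2, which encodes the basement membrane proteoglycan perlecan, had 308 and 354 CPM without asparagine and 418 and 430 CPM with it, a log2 difference that was not called (-0.36 ± 0.11, SE, edgeR adjusted p = 0.175). The collagen-binding proteoglycan genes Dcn, Lum and Fmod had at most 2 reads in any library.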
